A study of Homo sapiens with 6 samples.

Results

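Cholesterol synthesis genes and other targets of the sterol regulatory element-binding proteins (SREBPs) were followed in MDA-MB-231 cells, a mesenchymal human cell line of triple-negative breast cancer, after silencing of SAM68. The list holds 36 genes, chosen by symbol in the table of 74852 loci, and 35 of them passed the minimum mean of 10 normalized reads, as did 18849 loci in all. Cells went through 2 rounds of transfection, either with siRNA that targets no gene (si-CTRL) or with 4 pooled siRNAs that target SAM68 (si-SAM68), and each group gave 3 libraries of polyadenylated RNA. Both groups are the same cell line, grown in medium with serum and with no other agent named, so the comparison covers 1 line and 1 pool of siRNAs. The sample labels place the harvest 24 h after the second transfection. The methods of the study give a longer time after transfection without naming the round. Whether both describe the same harvest time could not be told. The methods of the study name a harvest in triplicate. Neither they nor the labels say whether the 3 libraries of a group came from separate cultures. The p-values therefore measure the spread between these libraries, which may be technical.

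Cells make cholesterol from acetyl-CoA through mevalonate, isoprenoid diphosphates, squalene and lanosterol. The genes for these enzymes, together with genes of fatty acid synthesis, are switched on by the SREBPs, which are membrane-bound transcription factors of the endoplasmic reticulum. SCAP escorts the SREBPs to the Golgi, where they are cleaved, and the INSIG proteins hold SCAP back when sterols are plentiful. Sam68, encoded by KHDRBS1, is an RNA-binding protein that regulates splicing.

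The siRNAs of the SAM68 pool are shown to allow the lipid genes to be searched for matches to their seeds. Each is given as its sense strand, and the capitals mark positions 12 to 18, which are the bases a transcript must hold to pair with guide positions 2 to 8. All 4 matched the coding sequence of KHDRBS1 in the transcripts of GENCODE release 29.
SAM68 siRNA 1: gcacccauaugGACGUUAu
SAM68 siRNA 2: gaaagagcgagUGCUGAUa
SAM68 siRNA 3: uaugauggaugAUAUCUGu
SAM68 siRNA 4: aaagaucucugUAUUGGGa

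A match of these 7 bases was found in the longest 3'UTR of 10 of 35 members (28.6%), against 3822 of 13254 tested genes with a 3'UTR (28.8%). The members were HMGCS1, PMVK, IDI1, SREBF2, INSIG1, INSIG2, ELOVL6, SCD, FADS1 and LPIN1. Of the 6 members that differed between the groups at an adjusted p under 0.05, HMGCS1 and SCD held a match, and TM7SF2, ACLY, FASN and NPC2 held none. The sites in HMGCS1 and SCD are shown because both genes fell, and are given with 10 bases on either side in GRCh38, and the capitals mark the match.
HMGCS1 3'UTR (chr5:43291039-43291065, minus strand): gaggaatgggATATCTGgggataattt
SCD 3'UTR (chr10:100362249-100362275, plus strand): ctgagtgagtTATTGGGagtcttaata

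The sequences upstream of 5 of these 6 genes, and of SREBF2, are shown because SREBPs act at promoters together with the factors NF-Y and Sp1. They are the 250 bases before the start from RefSeq (GRCh38.p14), for the first start listed of each gene, read 5′ to 3′ on the strand of the gene. FASN is not in the promoter table. Capitals mark matches, on either strand, to the core of the sterol regulatory element (TCACNCCAC), to the NF-Y box (CCAAT), to the Sp1 box (GGGCGG) or to the E-box (CACGTG), and overlaps between motifs were not removed.
HMGCS1 (chr5:43313413-43313662, minus strand): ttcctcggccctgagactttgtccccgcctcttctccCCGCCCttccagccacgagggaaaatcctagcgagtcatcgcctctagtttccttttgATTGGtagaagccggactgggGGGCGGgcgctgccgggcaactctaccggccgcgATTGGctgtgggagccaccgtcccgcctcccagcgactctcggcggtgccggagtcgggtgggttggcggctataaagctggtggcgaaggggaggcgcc
TM7SF2 (chr11:65111622-65111871, plus strand): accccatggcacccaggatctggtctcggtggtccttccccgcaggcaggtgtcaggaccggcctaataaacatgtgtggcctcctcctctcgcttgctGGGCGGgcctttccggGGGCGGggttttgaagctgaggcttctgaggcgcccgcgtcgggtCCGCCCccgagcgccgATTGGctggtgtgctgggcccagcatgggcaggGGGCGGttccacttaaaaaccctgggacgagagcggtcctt
ACLY (chr17:41919023-41919272, minus strand): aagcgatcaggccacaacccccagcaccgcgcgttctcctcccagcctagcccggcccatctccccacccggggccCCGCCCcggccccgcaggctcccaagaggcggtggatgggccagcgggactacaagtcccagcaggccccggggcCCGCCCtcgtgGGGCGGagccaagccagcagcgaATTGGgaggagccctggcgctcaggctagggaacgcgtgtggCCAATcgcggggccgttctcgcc
SCD (chr10:100346983-100347232, plus strand): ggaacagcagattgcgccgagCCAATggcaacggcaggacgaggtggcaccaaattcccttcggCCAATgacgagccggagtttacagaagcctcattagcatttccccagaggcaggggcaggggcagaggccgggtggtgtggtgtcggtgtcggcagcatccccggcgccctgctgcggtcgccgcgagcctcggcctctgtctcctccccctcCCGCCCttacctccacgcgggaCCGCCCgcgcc
NPC2 (chr14:74493513-74493762, minus strand): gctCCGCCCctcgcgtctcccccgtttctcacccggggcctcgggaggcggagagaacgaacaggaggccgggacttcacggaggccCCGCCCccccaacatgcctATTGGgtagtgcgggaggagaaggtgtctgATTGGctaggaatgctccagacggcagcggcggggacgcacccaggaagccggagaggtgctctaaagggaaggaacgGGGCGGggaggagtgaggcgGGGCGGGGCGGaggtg
SREBF2 (chr22:41832855-41833104, plus strand): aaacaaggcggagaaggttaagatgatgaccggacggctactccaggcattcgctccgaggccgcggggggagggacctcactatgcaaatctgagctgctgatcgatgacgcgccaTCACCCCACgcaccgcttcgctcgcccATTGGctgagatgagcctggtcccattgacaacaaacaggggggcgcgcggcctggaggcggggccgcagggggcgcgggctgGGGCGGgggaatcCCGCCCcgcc

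Over windows of 300 bases (250 before and 50 from the start), 47 promoters of 32 members were found in the same table. The core of the sterol regulatory element stood in 1 of these 47 promoters, that of SREBF2, where TCACCCCAC begins 133 bases before the start. It stood in 1.13% of all 35116 promoters. The NF-Y box stood in 27 of the 47 (57.4%), against 34.6% of all promoters, and the Sp1 box in 40 (85.1%), against 45%. The E-box, which SREBPs also bind, stood in 5 (10.6%), against 7.26%. These are matches of fixed letters in a short window, and binding was not measured. Elements with other letters or outside the window were not searched, so a promoter without a match may still hold one.

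The libraries held 52625492 to 82568487 reads on annotated loci, and a single read was worth 0.9199 to 1.25 normalized reads. KHDRBS1 was counted at 15660, 14483 and 14737 normalized reads in control libraries and at 583, 602 and 670.2 in silenced libraries, so that 4.13% of the control mean remained (log2 fold change -4.60, SE 0.0829, limma adjusted p = 2.13e-09). The exact permutation test of this gene gave p = 0.1, two-sided, the smallest that 3 against 3 libraries allow. Markers of the line (VIM, CD44, AXL and SPARC) were abundant in all 6 libraries, while ESR1, PGR, CDH1 and EPCAM lay between 0 and 15.2. Of the hepatocyte and adipocyte markers ALB, APOA1, ADIPOQ and PLIN1, the first 3 were at 5.0 or less in every library, and PLIN1, a lipid droplet protein of adipocytes, was at 57.0 to 78.0. In si-SAM68 replicate 2 an rRNA locus took 15.1% of reads, against 1.83% to 3.17% in the other libraries, so results are also given without it.

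Upon SAM68 depletion, 29 of the 35 members tested did not pass the test, and 3 of the 6 that passed were genes of fatty acid synthesis. At an adjusted p under 0.05, 4 of the 35 members tested fell (11.4%), where 6.23% of all loci did, and 2 rose (5.71%), where 4.47% of all loci did. SCD, FASN, HMGCS1 and ACLY were lower, and TM7SF2 and NPC2 were higher. With the thresholds of the study (unadjusted p up to 0.05 together with a 1.5-fold change or more), 1 member was lower (SCD, 2.86% of members against 4.83% of all loci) and 1 was higher (TM7SF2, 2.86% against 2.83%). These thresholds were applied to the limma fit, where 1445 loci passed them. The study listed fewer regulated genes from its own pipeline, so the calls and shares given here need not be those of the study. The share that fell at the adjusted p was above the background and the other shares were close to it or below it. That share rests on 4 genes, and the count was 1 to 5 without single libraries. The background holds all loci down to a mean of 10 normalized reads, while most members lie far above it. Shares were not compared at like expression. The median log2 fold change of the members was -0.004 (17 above and 18 below 0), and that of all loci was 0.01, with 50.9% above 0. The smaller calls were close to the threshold. With no minimum on low values, HMGCS1, TM7SF2, ACLY and NPC2 stood at a limma adjusted p of 0.0572, 0.0555, 0.102 and 0.076, and with a prior variance set to be the same at all expression levels SCD (0.0286) and TM7SF2 (0.0212) passed, while FASN, NPC2, HMGCS1 and ACLY stood at 0.0514, 0.103, 0.122 and 0.124. Fewer cells of a state and less RNA per cell cannot be told apart in such bulk samples.

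Without overlap of the groups, 10 members lay lower in every si-SAM68 library than in any si-CTRL library (28.6%, against 17.3% of all loci), and 4 lay higher (11.4%, against 16.6%). Those lower were HMGCS1, MVD, SQLE, INSIG1, ACLY, FASN, SCD, FADS1, FADS2 and STARD4, and those higher were TM7SF2, MSMO1, INSIG2 and NPC2.

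**Figure D1:**
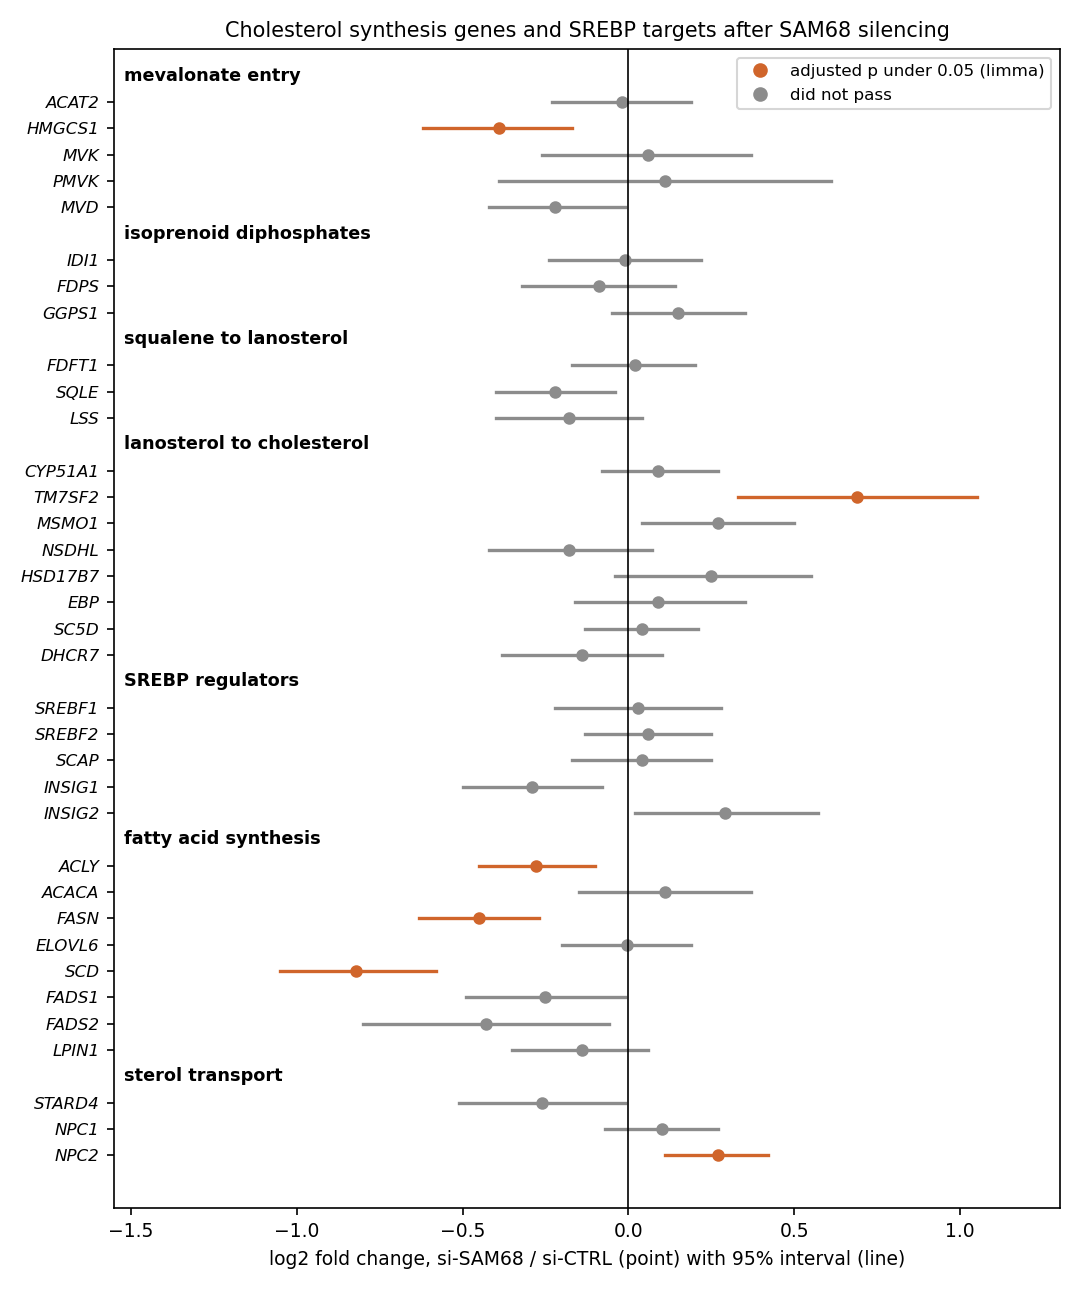
Log2 fold change of each tested gene between si-SAM68 and si-CTRL cells (x axis, points) with its 95% interval (lines), grouped by role, with orange for an adjusted p under 0.05 in limma. SCD at -0.82 and TM7SF2 at 0.69 stand farthest from 0 and most other intervals include 0.

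Among the 5 enzymes of the mevalonate steps, HMGCS1 fell. HMGCS1, the cytosolic synthase that makes HMG-CoA, was counted at 6904, 8901 and 8887 in si-CTRL and at 6256, 6081 and 6328 in si-SAM68 cells. The si-CTRL replicate 1 library lay close to the silenced cells, and the groups did not overlap. The mean went from 8231 ± 1149 to 6222 ± 127 (SD, n = 3), which is 24.4% lower (log2 fold change -0.39, SE 0.102, 95% interval -0.62 to -0.17, limma adjusted p = 0.0379). The adjusted p was 0.0473 with the replicate number as a block, and 0.0504 in edgeR with that block. It was 0.000339 without si-CTRL replicate 1 and 0.0999 to 0.129 without any other single library, including 0.129 without si-SAM68 replicate 2. MVD, the decarboxylase that makes isopentenyl diphosphate, had means of 1255 ± 62.3 and 1082 ± 74.8, with no overlap, and did not pass (log2 fold change -0.22, adjusted p = 0.163). ACAT2, the thiolase that joins acetyl-CoA units, stood at -0.02 on the log2 scale, and the kinases MVK at 0.06 and PMVK at 0.11. PMVK had the widest spread of the list in control cells (312 to 621), and its interval of -0.39 to 0.61 allows a change in either direction.

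The 3 enzymes of isoprenoid diphosphates gave no call. IDI1, the isomerase, had a log2 fold change of -0.01, FDPS, which makes farnesyl diphosphate, of -0.09, and GGPS1, which makes geranylgeranyl diphosphate, of 0.15, with intervals reaching from -0.32 to 0.35. No member of this group passed an unadjusted p of 0.05, and edgeR and DESeq2 called 0 of the 3. The FDPS locus lies inside the annotated loci of SLC50A1 (log2 fold change -0.71) and SHC1 (-0.03), and IDI1 overlaps WDR37 (-0.87), so their reads may be shared. Use of strand in counting is not stated, and it would not separate loci on the same strand.

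Squalene synthesis and closure into lanosterol were also without a call. SQLE, the epoxidase and a textbook SREBP target, was counted at 6294, 5616 and 5642 in si-CTRL and at 4719.8, 5094 and 5213 in si-SAM68 cells. All 3 silenced libraries lay below the controls. The mean was 14.4% lower (log2 fold change -0.22, SE 0.0802, 95% interval -0.40 to -0.04) and did not pass, with a limma adjusted p = 0.107 and a range of 0.11 to 0.256 without single libraries. LSS, the cyclase that forms lanosterol, stood at -0.18 (adjusted p = 0.283), and FDFT1, the squalene synthase, at 0.02 (0.928). Of these 3 genes, 1 had an unadjusted p under 0.05 (SQLE), and edgeR and DESeq2 called 0.

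Of the 8 enzymes from lanosterol to cholesterol, TM7SF2 rose. TM7SF2, a sterol reductase of the endoplasmic reticulum and nuclear envelope, was counted at 65.0, 76.5 and 69.4 in si-CTRL and at 116, 111 and 114 in si-SAM68 cells. The groups stood far apart beside the small spread within each. The mean went from 70.3 ± 5.82 to 113.7 ± 2.28 (log2 fold change 0.69, SE 0.16, 95% interval 0.33 to 1.05, limma adjusted p = 0.025). The adjusted p was 0.0495 with the replicate block, 0.0539 in edgeR with the block, 0.0339 and 0.0369 without si-CTRL replicates 1 and 2, and 0.0685 to 0.0981 without si-CTRL replicate 3 or any si-SAM68 library (0.0843 without si-SAM68 replicate 2). Its locus overlaps that of VPS51 by 9 bases, where VPS51 stood at -0.01. MSMO1, a methyl oxidase, lay higher without overlap (7004 ± 951 and 8395 ± 436) and did not pass (log2 fold change 0.27, adjusted p = 0.128, and 0.15 on the log2 scale without si-CTRL replicate 1). Among the others, HSD17B7 stood at 0.25, CYP51A1 at 0.09, EBP at 0.09, SC5D at 0.04, DHCR7 at -0.14 and NSDHL at -0.18. HSD17B7, a ketosteroid reductase, has a pseudogene copy (HSD17B7P2, 100 to 127 normalized reads) with which it could trade reads, and the CYP51A1 locus also holds LRRD1. Over all 19 sterol synthesis enzymes, the median was 0.02, with 10 above and 9 below 0.

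**Figure D2:**
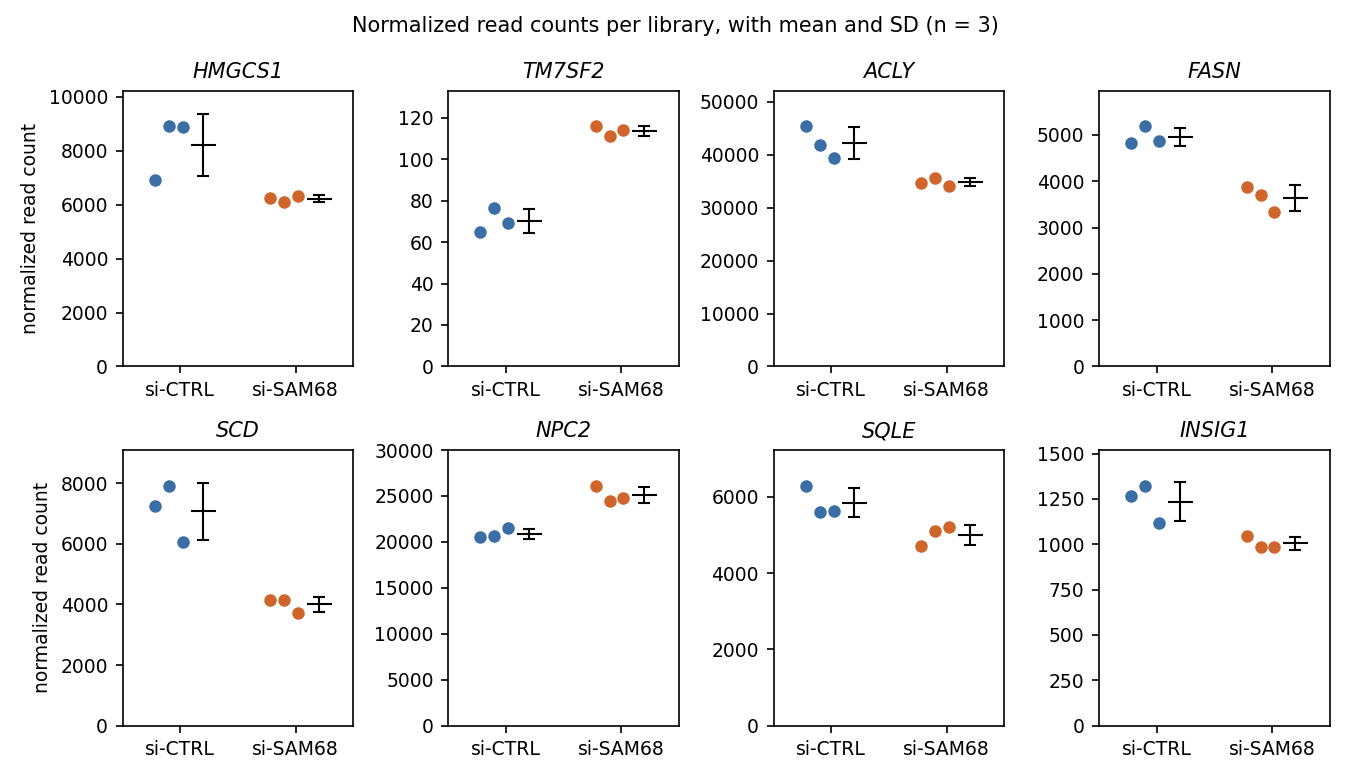
Normalized read counts (y axis, from 0) of the 6 genes that passed an adjusted p under 0.05 and of SQLE and INSIG1, with a point for each library and bars for mean and SD (n = 3), si-CTRL in blue and si-SAM68 in orange. In each panel the 3 libraries of one group lie wholly above those of the other, with SCD at 3719 to 4153 against 6060.5 to 7913.

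The transcripts of the SREBPs and of their regulators gave no call. SREBF1 was counted at 2893, 3343 and 2917 in si-CTRL and at 3623, 3012 and 2727 in si-SAM68 cells. SREBF2 was counted at 8703, 9066.5 and 8441 against 9985.5, 9166 and 8226. SCAP was counted at 3684.5, 3678.5 and 3903 against 4335, 3858 and 3454. In all 3 genes si-SAM68 replicate 1 was the highest and si-SAM68 replicate 3 the lowest of the 6 libraries, and the groups overlapped. The log2 fold changes were 0.03 for SREBF1 (95% interval -0.22 to 0.28, adjusted p = 0.912), 0.06 for SREBF2 (-0.13 to 0.25, 0.702) and 0.04 for SCAP (-0.17 to 0.25, 0.812), so that a change of more than 0.28 on the log2 scale lies outside each interval.

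INSIG1 and INSIG2, the retention proteins of SCAP, lay on opposite sides of the controls. INSIG1, itself a strong SREBP target, was counted at 1266, 1323 and 1115 in si-CTRL and at 1047, 986 and 984 in si-SAM68 cells. Its log2 fold change was -0.29 (SE 0.0944, 95% interval -0.50 to -0.08), with an adjusted p = 0.0775 in limma and 0.0463 in DESeq2, and 0.0693 to 0.231 in limma without single libraries. INSIG2 was counted at 2435, 3359 and 3370.1 against 3581, 3626 and 3885. The si-CTRL replicate 1 library stood well below the other controls. The log2 fold change was 0.29 (95% interval 0.02 to 0.57, adjusted p = 0.163), and 0.14 without that library, where INSIG1 stood at -0.27. Neither gene overlapped between the groups, and neither passed in limma. Over these 5 genes, 2 had an unadjusted p under 0.05, edgeR called 0 and DESeq2 called 1.

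Fatty acid synthesis held 3 of the 6 calls. Of its 8 genes 3 fell (37.5%, against 6.23% of all loci) and none rose (4.47% of all loci did), with a median log2 fold change of -0.26, and 7 of the 8 lay below 0, of which ELOVL6 (-0.004) stood at 0.001 in edgeR and at 0.0003 in DESeq2. SCD, the desaturase that makes monounsaturated fatty acids, was counted at 7256.5, 7913 and 6060.5 in si-CTRL and at 4134, 4153 and 3719 in si-SAM68 cells. The lowest control library lay well above the highest silenced one. The mean went from 7077 ± 939 to 4002 ± 246 (SD, n = 3), which is 43.4% lower (log2 fold change -0.82, SE 0.104, 95% interval -1.05 to -0.58, limma adjusted p = 0.00171). SCD passed in all 18 alternatives, with a log2 fold change of -0.92 to -0.73 without single libraries, and of -0.84 without si-SAM68 replicate 2 (adjusted p = 0.00808).

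FASN, the fatty acid synthase, was counted at 4827, 5182 and 4871 in si-CTRL and at 3879.6, 3694 and 3338 in si-SAM68 cells. All silenced libraries lay below the controls, with si-SAM68 replicate 3 the lowest. The mean was 26.7% lower (log2 fold change -0.45, SE 0.0819, 95% interval -0.63 to -0.27, limma adjusted p = 0.0094), and the call was lost without si-SAM68 replicate 3 (adjusted p = 0.0528) and held without si-SAM68 replicate 2 (0.0415). ACLY, which makes cytosolic acetyl-CoA from citrate, was counted at 45364, 41864 and 39403 against 34681, 35658 and 34141. The groups did not overlap, and the spread was larger in the controls. The mean was 17.5% lower (log2 fold change -0.28, SE 0.0769, 95% interval -0.45 to -0.10, limma adjusted p = 0.0486). For ACLY the adjusted p was 0.0663 with the replicate block, 0.0505 with TMM rescaling, 0.0318 without si-CTRL replicate 1 and 0.0621 to 0.163 without any other library (0.134 without si-SAM68 replicate 2).

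The desaturases FADS1 and FADS2, which introduce double bonds in polyunsaturated fatty acids, lay lower in si-SAM68 cells without passing. FADS2 was counted at 2266, 1521 and 1466 in si-CTRL and at 1442, 1306 and 1090.3 in si-SAM68 cells. The si-CTRL replicate 1 library stood above all others. The log2 fold change was -0.43 (SE 0.167, 95% interval -0.80 to -0.06), with an adjusted p = 0.13 in limma, 0.0448 with the replicate block and 0.0399 in DESeq2, and the change was -0.23 without si-CTRL replicate 1 (adjusted p = 0.18). FADS1 stood at -0.25 (adjusted p = 0.162), and at -0.14 without si-CTRL replicate 1. The loci of FADS1 and FADS2 overlap each other by 855 bases, and both lie wholly inside the annotated locus of CPSF7 and FTH1. That locus had a far higher mean (147970 normalized reads in si-CTRL) and stood at 0.10, so reads may be shared. FADS1 lies on the minus strand and FADS2 on the plus strand. Counting by strand could separate them from each other, but not both from that locus. LPIN1, a phosphatidate phosphatase, stood at -0.14, ELOVL6, an elongase, at -0.004, and ACACA, the carboxylase that makes malonyl-CoA, at 0.11. None of these 3 passed. In the whole group 5 genes had an unadjusted p under 0.05.

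Of the sterol transport genes, NPC2 rose. NPC2, the soluble lysosomal protein that hands cholesterol to NPC1, was counted at 20490, 20630 and 21541 in si-CTRL and at 26115, 24506 and 24757 in si-SAM68 cells. All silenced libraries lay above the controls, with a small spread in both groups. The mean was 20887 ± 571 against 25126 ± 866 (log2 fold change 0.27, SE 0.0692, 95% interval 0.11 to 0.42, limma adjusted p = 0.0379). The adjusted p was 0.0634 with the replicate block, 0.0704 after quantile normalization, 0.0178 without si-CTRL replicate 1 and 0.0792 to 0.119 without any other library (0.119 without si-SAM68 replicate 2). NPC1, the membrane protein that takes cholesterol out of lysosomes, stood at 0.10 (adjusted p = 0.449). STARD4, a cytosolic carrier of sterols, stood at -0.26 without overlap (adjusted p = 0.176). Its adjusted p was 0.047 without si-CTRL replicate 1 and 0.247 to 0.42 without any other library, and its log2 fold change was -0.17 without si-CTRL replicate 3. NPC1L1, the intestinal cholesterol importer, was near the floor, with 0 to 8.75 normalized reads in si-CTRL and 2.01 to 8.94 in si-SAM68 cells, and was not tested. The NPC2 locus also holds MIR4709 and the SREBF1 locus MIR6777, and the loci of 13 members overlap another tested locus, among them ACAT2 with SOD2 (-0.44) and TCP1 (-0.05).

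**Figure D3:**
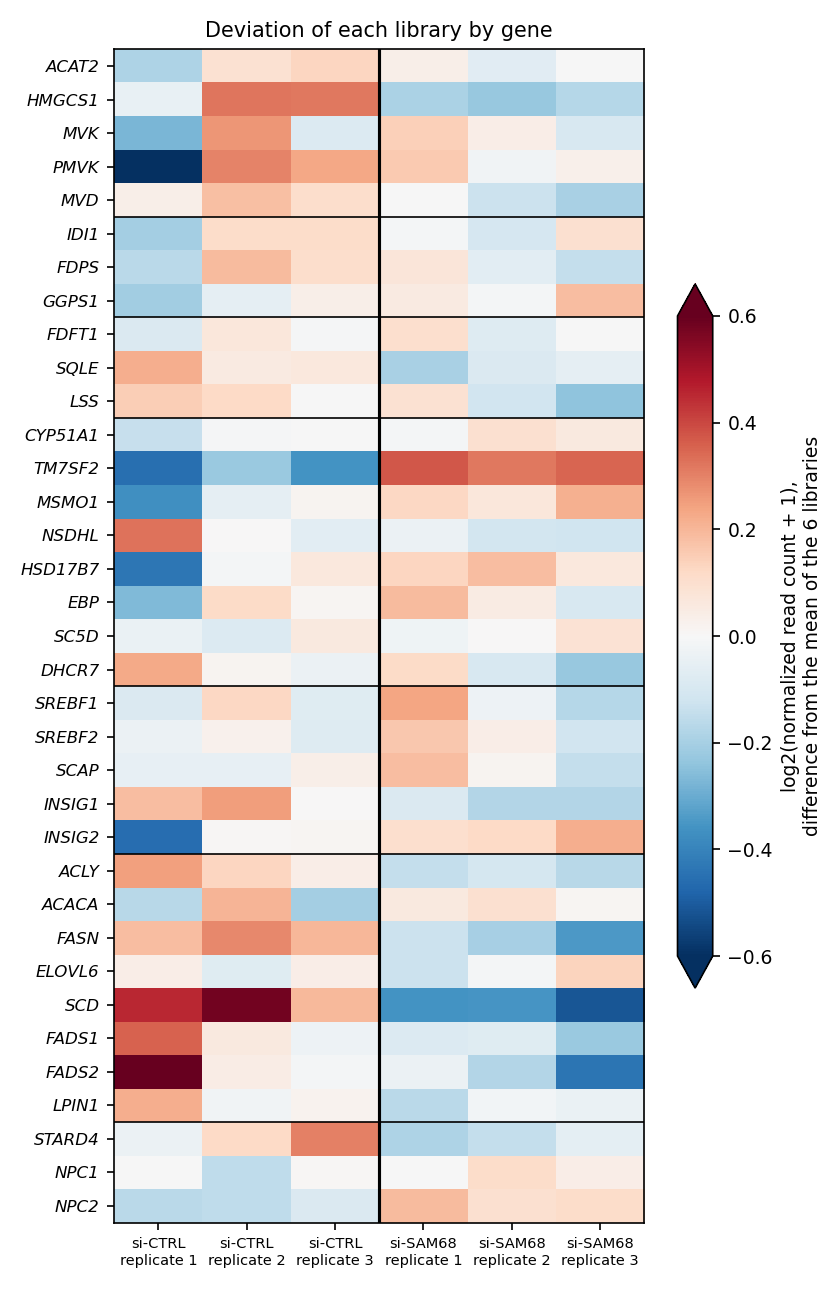
Difference of each library from the mean of the 6 libraries on the scale of log2(normalized read count + 1) (colour), for each tested gene (y axis, black lines between the 7 roles in the order of the text) and library (x axis). SCD changes colour cleanly between the groups, while si-CTRL replicate 1 departs from the other controls in many genes, with PMVK at 312 against 592 and 621.

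The spread between libraries was not even over the list. The si-CTRL replicate 1 library was the lowest of the 6 for 14 of 35 members (40%, against 28.3% of all loci) and the highest for 8. The si-SAM68 replicate 3 library was the lowest for 13 (37.1%, against 17.3%), among them SCD, FASN, ACLY, FADS1, FADS2, SREBF1 and SREBF2. The si-CTRL replicate 2 library was the highest for 9 (25.7%, against 11.4%), among them HMGCS1, SCD, FASN and INSIG1. The median coefficient of variation of the members was 9.01% over control libraries and 5.74% over silenced libraries, against 11.9% and 8.14% for all loci. The part of these libraries in the calls above was not tested beyond the values given without each.

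Other genes of sterol and fatty acid handling were followed in 8 lists of 99 genes, 92 of which were tested. Of these 5 rose (5.43%, against 4.47% of all loci) and 12 fell (13%, against 6.23%), and the median log2 fold change was 0.01. The lists were chosen with earlier results of these data known, so their shares are a description and not a test. Among the genes called, ABCG1, ABCA1 and VLDLR had the largest decreases and NCEH1 the largest increase. In sterol efflux, 2 of 9 genes fell (22.2%, against 6.23% of all loci). ABCA1, the exporter that loads cholesterol on apolipoprotein, was counted at 291, 322 and 293 in si-CTRL and at 140.03, 206 and 178 in si-SAM68 cells (log2 fold change -0.80, limma adjusted p = 0.0125). ABCG1, a related exporter, was low throughout, at 17.5, 46.5 and 28.5 against 8.06, 11.04 and 6.70 (-1.65, adjusted p = 0.034). Both transporters lay lower in every silenced library than in any control.

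In lipoprotein uptake, 2 of 8 genes fell (25%, against 6.23% of all loci) and 1 rose (12.5%, against 4.47%). VLDLR, a receptor of triglyceride-rich lipoproteins, was counted at 575, 644 and 675 in si-CTRL and at 328, 392 and 382 in si-SAM68 cells (log2 fold change -0.78, limma adjusted p = 0.00356). LRP8, a related receptor, stood at -0.39 (adjusted p = 0.048, and 0.0727 with the replicate block), and LIPA, the lysosomal lipase that frees cholesterol from its esters, at 0.37 (0.0421, and 0.0508 with the block). In the storage list, 1 of 7 genes rose (14.3%, against 4.47%). NCEH1, a hydrolase of cholesterol esters, was counted at 28086, 26087 and 28873 against 48462, 54417 and 56294 (0.94, adjusted p = 0.000307). All 3 silenced libraries stood far above the controls.

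In intracellular sterol transfer, 4 of 17 genes fell (23.5%, against 6.23% of all loci) and none rose (4.47% of all loci did). They were GRAMD1B (log2 fold change -0.64, limma adjusted p = 0.0106), which moves plasma membrane cholesterol inward, and the oxysterol-binding protein relatives OSBPL5 (-0.62, 0.0062), OSBPL8 (-0.38, 0.0294) and OSBPL10 (-0.38, 0.0463, and 0.0768 with the replicate block). Among 12 genes of SREBP transport, cleavage and turnover, 2 rose and 2 fell (16.7% each, against 4.47% and 6.23% of all loci), and 3 of these are coat proteins of vesicles that leave the endoplasmic reticulum. SEC24A (0.45, adjusted p = 0.0147) and SEC23A (0.35, 0.0128) rose. SEC24D (-0.29, 0.035) and UBE2G2 (-0.29, 0.0423), a ubiquitin-conjugating enzyme, fell, and both stood at 0.0615 with the replicate block. The 2 genes that fell among 14 in the use of isoprenoids (14.3%, against 6.23%) were the prenyltransferase subunits PGGT1B (-0.48, 0.012) and RABGGTA (-0.39, 0.038). LBR (0.36, 0.0101), a sterol reductase of the nuclear envelope with the same activity as TM7SF2, rose among 3 other sterol enzymes (33.3%, against 4.47%). Each of these lists holds few genes, and a single gene moves its share by several percent. No gene of 22 in other fatty acid and glycerolipid synthesis passed in limma, where 3 had an unadjusted p under 0.05, edgeR called 1 and DESeq2 called 2.

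The calls of VLDLR, NCEH1 and OSBPL5 held without each library. Those of ABCA1 and GRAMD1B were lost without si-SAM68 replicate 3 (adjusted p = 0.0591 and 0.0603). SEC24A, SEC23A and LBR were lost without si-SAM68 replicate 2 or 3 (up to 0.081, 0.0719 and 0.0592), and PGGT1B without si-SAM68 replicate 1 or 2 (up to 0.0581). Among the fits that leave out a library, UBE2G2, SEC24D, ABCG1, LIPA and OSBPL8 were called only in that without si-CTRL replicate 1. LRP8, OSBPL10 and RABGGTA were called only in those without si-CTRL replicate 1 or 2. The other fits that leave out a library gave these 8 genes a limma adjusted p of up to 0.19. ABCG1 passed in 9 of its 17 alternatives to the main fit, and DESeq2 gave it no adjusted p.

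**Figure D4:**
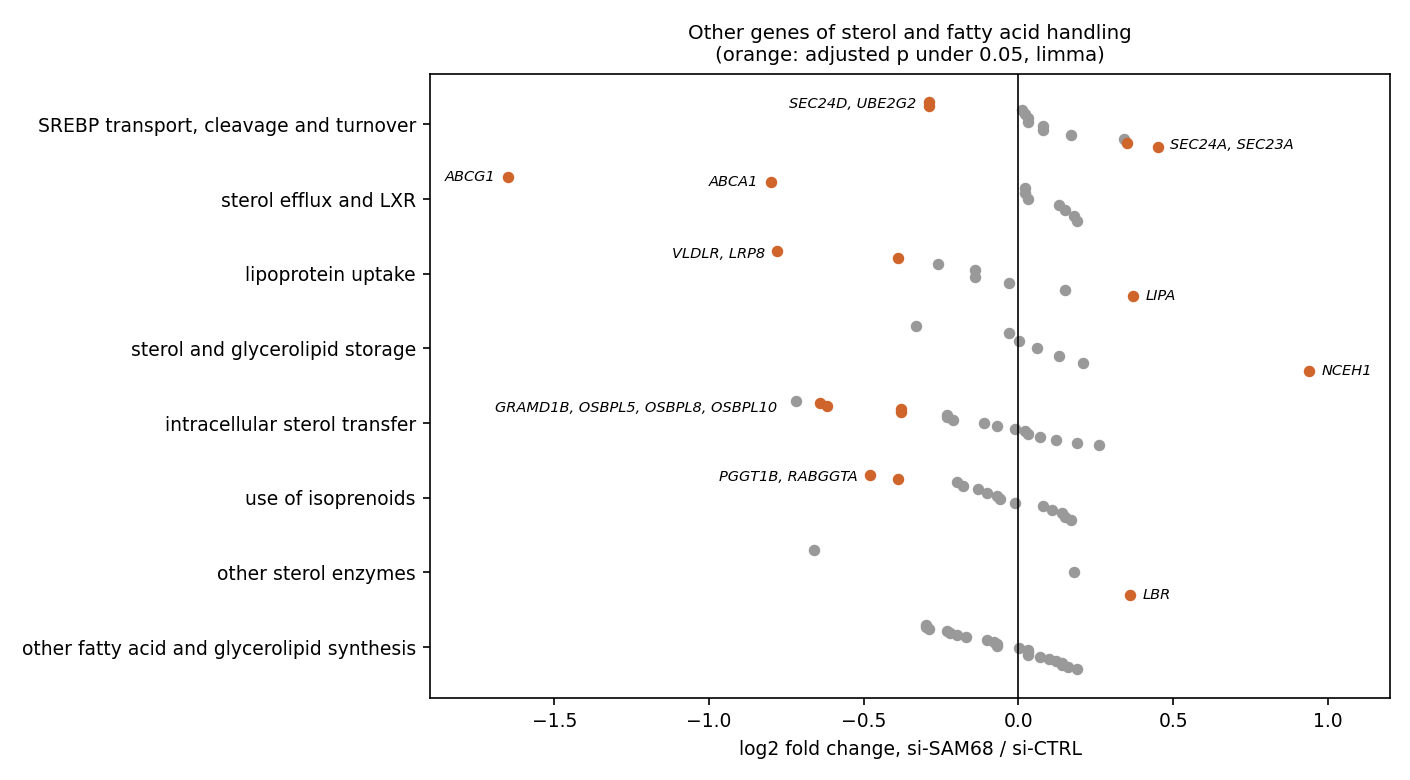
Log2 fold change between si-SAM68 and si-CTRL cells (x axis) for the 92 tested genes of 8 lists around the pathway (y axis), with a point for each gene and orange for an adjusted p under 0.05 in limma. ABCG1 at -1.65 and NCEH1 at 0.94 stand at the ends, and most points lie between -0.5 and 0.5.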

How the data were processed

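The table of the series was used. What the authors deposited is a normalized signal, made from reads per FAST DB locus (hg19) and the size factors of DESeq2. The submitters' processing notes name STAR 2.4.0, and a counting program or use of strand is not given in the sources used here. The labels also name another culture medium and RNA kit than the study's methods, and a stranded library kit. With a tolerance of 0.01 reads, 100% of the values were whole multiples of the worth of 1 read in their library, and these reads served edgeR and DESeq2.

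Differences were tested with limma 3.58.1 (R 4.3.3, lmFit and trended eBayes) after a log2 transform of the values with a pseudocount of 1, without a term for the replicate number, and p-values were adjusted by Benjamini-Hochberg over all 18849 loci. A fold change on this scale understates changes of genes with few reads. The members and lists were chosen with earlier results of these data known. The genes named are KHDRBS1, the members that passed, the SREBP regulators, the textbook targets HMGCS1, SQLE and FASN, up to 4 called genes of each list, and the other members by log2 fold change. Genes at overlapping loci, SLC50A1, SHC1, WDR37, VPS51, SOD2, TCP1, CPSF7 and FTH1, were named after their values were seen.

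Whether libraries with the same replicate number, as given in the labels, vary together was checked by the correlation of their deviations from group means. It was 0.105, 0.231 and 0.125 for numbers 1, 2 and 3, and -0.125 to 0.00687 for unlike numbers, and a fit with the number as a block was made. Other alternatives were pseudocounts of 0.1 and 5, no minimum and a minimum mean of 50, TMM and quantile scaling, eBayes without trend and robust, edgeR 4.0.16, DESeq2 1.42.0, a fold change of 2, and each library left out. edgeR with the block was added after seeing the data. On the recovered reads edgeR called 2026 and DESeq2 2789 genes at an adjusted p under 0.05, against 2017 in limma. The tests were tried on simulated data with known changes of 2-fold or more. All members tested changed by less than that, and changes of their size were not simulated. Replicates differed by far more than counting noise (chi-square per degree of freedom of 12.6 to 388), so each counted as a library. The values of 386 and 388 came from pairs with si-SAM68 replicate 2, the library with more rRNA reads. All other pairs stood at 12.6 to 79.3. Sequences came from RefSeq and GENCODE, with no genome of hg19 used here. The siRNA sequences are those listed by the study.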

Additional observations from a re-analysis of the deposited data

How the results depend on the processing

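Each value rests on 3 libraries a group, and single libraries decided several calls. Depth was low for NPC1L1, with 0 to 8 reads a library. SCD passed under all 18 alternatives, and FASN under 16 with the same direction in all. The count of members higher at an adjusted p under 0.05 (2) was 0 with no filter, 1 after quantile normalization, 1 with eBayes without trend, 1 with the replicate block, 0 in edgeR with the block and 0 to 2 without single libraries. The count lower (4) was 2 with no filter, 3 with TMM rescaling, 1 without trend and 1 to 5 without single libraries. In edgeR with the block the count lower was 3, and in DESeq2 it was 6. At a fold change of 2 the thresholds of the study gave 0 members higher and 0 lower. Over the whole table, 899 loci passed without trend and 625 to 2839 without single libraries (2017 otherwise), and 2240 passed the thresholds of the study with no filter, against 1445. Genes of the lists were 2 higher and 4 lower without trend, 6 lower with no filter, and 1 to 9 higher and 3 to 16 lower without single libraries, against 5 and 12. With the replicate block, genes of the lists were 4 higher and 8 lower, both in limma and in edgeR. DESeq2 gave 6 higher and 13 lower. The median over members ran from -0.058 to 0.036 without single libraries. Of the fits without a library, the one without si-CTRL replicate 1 gave the highest counts at an adjusted p under 0.05, and the lowest count by the thresholds of the study (1301, against up to 1831). Leaving out a library leaves fewer samples. Otherwise the cause was not tested. FDFT1 turned to -0.003 under quantile normalization, and ELOVL6 to 0.001 in edgeR and 0.0003 in DESeq2. Without single libraries, log2 fold changes that crossed 0 ran from -0.12 to 0.04 for ACAT2, -0.06 to 0.21 for MVK, -0.21 to 0.28 for PMVK, -0.11 to 0.04 for IDI1, -0.03 to 0.06 for FDFT1, -0.01 to 0.17 for EBP, -0.09 to 0.12 for SREBF1, -0.01 to 0.13 for SREBF2, -0.04 to 0.12 for SCAP and -0.07 to 0.06 for ELOVL6. Apart from the calls given with it in the text, the replicate block changed no call among the genes named.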
